A study of Cavia porcellus with 72 samples.

Results

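Splicing factors and RNA helicases were followed in the hippocampus of juvenile female guinea pigs over 3 generations. They were taken by gene symbol as SR proteins (SRSF), heterogeneous nuclear ribonucleoproteins (HNRNP), subunits of the small nuclear ribonucleoproteins (SNRP), U2 factors (SF3A, SF3B), pre-mRNA processing factors (PRPF), Sm-like proteins (LSM), numbered RNA-binding motif proteins (RBM) and DEAD-box and DEAH-box helicases (DDX, DHX). Of 11927 genes in the count tables of the 3 generations, 134 met this rule, with 131 per generation, and no row of the name U2AF was found. DDX46 and SF3B3 were analysed in F2 alone, and DHX33, HNRNPA2B1 and SNRPB2 in F1 and F3 alone. RBM47, which had a row in F2 alone, did not pass the filter on low counts there and was tested in no generation, and DDX43 did not pass it in F1. By role they comprised 10 SR proteins, 13 hnRNPs, 8 Sm proteins and snRNP subunits, 9 U2 factors, 12 PRPF factors, 11 LSm proteins, 27 RBM proteins, 30 DEAD-box helicases and 14 DEAH-box helicases.

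Pregnant Dunkin-Hartley guinea pigs (F0) received repeated courses of betamethasone, a synthetic glucocorticoid (sGC, "Beta" in the labels), or saline (control). F1 females were exposed in the womb, whereas F2 and F3 females descended from that pregnancy through males bred to females outside the experiment, so that those pregnancies were not treated. Females, each from an independent mother, were killed on postnatal day 40, and mRNA of powdered hippocampus was sequenced from 6 control and 5 sGC animals in F1, 6 and 6 in F2, and 6 and 7 in F3. These are whole-tissue samples, in which fewer cells of a type and less RNA per cell cannot be told apart. All animals were female, and within a generation the groups were defined by the treatment of the F0 pregnancy.

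Introns are cut out of a pre-mRNA by the spliceosome, a machine that is assembled anew on each intron from snRNPs. Every spliceosomal snRNP except the one with U6 RNA carries a ring of Sm proteins, and the related LSm proteins form the ring of U6 and, in another makeup, a cytoplasmic ring that acts in mRNA decay. SF3A and SF3B belong to the U2 snRNP, which selects the branch point, PRPF proteins are part of later assemblies, and SR proteins and hnRNPs bind exons and introns and shift which sites are used. DEAD-box and DEAH-box proteins use ATP to remodel RNA, some of them in the spliceosome and others in ribosome assembly, mRNA export and translation. Neurons are known for an extensive use of alternative exons.

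Reads counted per library ranged from 13507449 to 19767033, and the members took between 1.03% and 1.20% of them. Values are given as counts per 1e+06 reads (CPM), scaled by TMM within a generation, and levels were not compared between genes because gene lengths of the counted models were not used. Libraries of a group differed by more than counting error (chi-square per degree of freedom 2.15 to 29.5 between pairs). All 9 neuron markers in the tables were detected in each generation, with summed levels of 8263 to 10016 CPM per library. sGC replicates 4 and 5 of F1, 6 of F2, and 5 and 6 of F3 carry library numbers from 32 to 36 in the labels, and no control does, so that whatever these numbers mark and sGC exposure overlap in part.

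In F3, 11 members were lower in sGC than in control females and none was higher (edgeR's quasi-likelihood test, Benjamini-Hochberg adjusted p under 0.05 over all genes tested). The 11 are 8.40% of the 131 members tested, beside 2.87% of all 11359 genes called lower, 2.17% called higher and 5.04% called in either direction. They were the helicases DDX1, DDX10, DDX24 and DDX42, the U2 factors SF3A1 and SF3B4, the tri-snRNP factor PRPF6, the hnRNPs HNRNPAB and HNRNPH2, the RNA-binding protein RBM28 and the Sm protein SNRPG. Fold changes were small, between -0.30 and -0.11 on the log2 scale. For DDX1, DDX10, DDX24, DDX42, HNRNPAB, PRPF6 and SF3B4 the 7 sGC animals all lay below the lowest control animal, which is 7 of 131 members beside 1.88% of all genes.

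**Figure D1:**
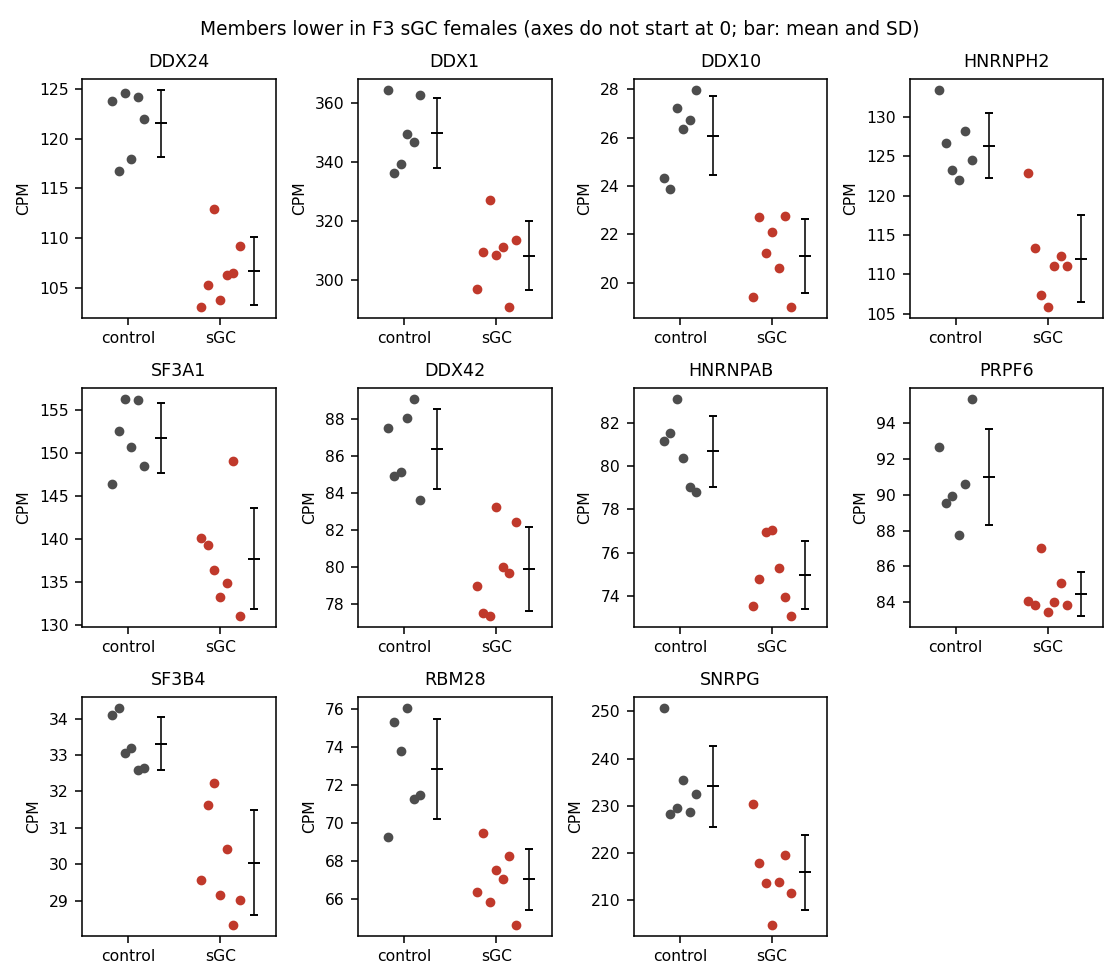
CPM of the 11 members called lower in F3, 1 point per library for 6 control and 7 sGC animals, with the mean and SD beside each group and axes that do not start at 0. DDX24, DDX1 and DDX10 show 2 separate clouds of points, whereas in HNRNPH2 and SF3A1 1 sGC animal reaches into the control range.

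DDX24, a nucleolar helicase of ribosome assembly, ranged from 116.8 to 124.6 CPM in the 6 F3 control animals (median 122.9). The 7 sGC animals ranged from 103.1 to 113.0 (median 106.4). Thus the highest sGC animal stayed below the lowest control animal, and DDX24 decreased by 0.19 on the log2 scale (standard error 0.0303, adjusted p = 0.00393 from edgeR). DDX10, another helicase of ribosome assembly, fell from between 23.9 and 28 CPM in control (median 26.5) to between 19 and 22.7 in sGC animals (median 21.2). It had the largest fold change of the 11 members, -0.30 (standard error 0.0557, adjusted p = 0.00763 from edgeR). DDX1, a helicase found in RNA granules and in the tRNA ligase complex, lay between 336 and 364 CPM in control (median 348) and, in sGC females, between 291 and 327 (median 309). Its decrease was 0.18 on the log2 scale (standard error 0.0328, adjusted p = 0.00688 from edgeR).

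The U2 snRNP was represented by SF3A1 and SF3B4 and by DDX42, a helicase that associates with SF3B. SF3A1 had 146.4 to 156.4 CPM in F3 control animals (median 151.7) and 131.1 to 149.1 in sGC animals (median 136.5). All but 1 sGC animal lay below the control range, with a log2 change of -0.14 and a standard error of 0.0329 (edgeR adjusted p 0.0218). SF3B4 was between 32.6 and 34.3 CPM in control (median 33.1) and, in sGC females, between 28.3 and 32.2 (median 29.5), so that the groups stood apart (log2 fold change -0.15, adjusted p = 0.0393 from edgeR). DDX42 likewise stood apart, with 83.6 to 89.1 CPM in control (median 86.3) and 77.3 to 83.2 in sGC animals (median 79.7; log2 fold change -0.11, adjusted p = 0.0378 from edgeR). Over the 8 U2 factors tested in F3, 6 had a fold change below 0, and the median was -0.08 beside 0.005 over all genes.

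PRPF6, which bridges the snRNPs of the tri-snRNP, ranged in F3 from 87.8 to 95.4 CPM in control (median 90.2) and, in sGC females, from 83.4 to 87.0 (median 84.0). The groups did not overlap, and the log2 fold change was -0.11 (adjusted p = 0.0379 from edgeR). HNRNPAB, an hnRNP of neuronal mRNA transport, had 78.8 to 83.1 CPM in control (median 80.8) and 73.1 to 77.1 in sGC animals (median 74.8), again without overlap (log2 fold change -0.11, adjusted p = 0.0379 from edgeR). HNRNPH2, which binds runs of G, was at 122.0 to 133.5 CPM in control (median 125.6) and at 105.9 to 122.9 in sGC animals (median 111.1; log2 fold change -0.17, adjusted p = 0.0110 from edgeR). Reads of 51 bases may not separate HNRNPH2 from its near copy HNRNPH1 everywhere, and HNRNPH1 had mean levels of 389.3 CPM in control (SD 12.6, n = 6) and 391.6 CPM in sGC females (SD 20.8, n = 7).

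RBM28, a nucleolar protein also found with spliceosomal snRNPs, was between 69.3 and 76.1 CPM in F3 control (median 72.6) and, in sGC females, between 64.7 and 69.5 (median 67.1; log2 fold change -0.12, adjusted p = 0.0394 from edgeR). SNRPG, a member of the Sm ring, was the last to pass. It had 228 to 251 CPM in control (median 231) and 205 to 230 in sGC animals (median 214; log2 fold change -0.12, adjusted p = 0.0493 from edgeR). In both genes 6 of the 7 sGC animals were below every control animal and 1 lay within the control range. Just outside the threshold stood SF3B2, a U2 factor, at -0.10 on the log2 scale (adjusted p = 0.0540), HNRNPL with -0.09 (adjusted p = 0.0633) and HNRNPK with -0.11 (adjusted p = 0.0697 from edgeR), and in all 3 genes the 7 sGC animals were below the control mean.

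How firmly these calls stand differed between members. The likelihood ratio test called the same 11 (3.69% of all genes lower), DESeq2 these and HNRNPK, HNRNPL and SF3B2 (4.68%), and the joint fit of all generations 6 of the 11 and HNRNPL (2.12%). DDX10, DDX24 and HNRNPH2 passed under each of the 20 other settings, which changed the test, the scaling or the filter, added a replicate block, joined the generations or left out libraries, and DDX1 passed in 19 of 20, losing its call with the replicate block (0.889% of all genes lower). SF3A1 passed in 17 of 20, DDX42, HNRNPAB and RBM28 passed in 9 of 20, PRPF6 and SF3B4 in 7, and SNRPG in 4. Without the libraries numbered 32 to 36, 5 members were called in F3, namely DDX1, DDX10, DDX24, HNRNPH2 and SF3A1, beside 1.37% of all genes called lower. Without sGC replicate 5 alone the count was 4, beside 1.52%.

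No member passed as higher in F3. The 5 with the smallest p in that direction were LSM6, of both LSm rings, with mean levels of 11.3 CPM in control (SD 1.37, n = 6) and 13.1 CPM in sGC females (SD 0.897, n = 7; log2 fold change 0.21, adjusted p = 0.129 from edgeR), RBM33, DDX54, DDX39A and DHX35, with adjusted p-values between 0.191 and 0.220. LSm proteins had a fold change above 0 for 9 of 11 members and a median of 0.05. DEAD-box helicases had one below 0 for 21 of 29 members, with a median of -0.04, and their summed level was 3287 to 3420 CPM in control and 3182 to 3311 in sGC animals, which overlapped. SR proteins were split evenly, with 5 of 10 below 0 and a median of -0.01, as were RBM proteins, with 13 of 26. DEAH-box helicases had 8 of 14 above 0 (median 0.03). Over all 131 members 77 were below 0 and 54 above (58.8% below 0, beside 48.3% of all genes), with a median of -0.02 beside 0.005. At an unadjusted p under 0.05 stood 22 lower and 5 higher members, which is 27 of 131, where 10.8% of all genes were lower and 10.3% higher at that level. The largest value over all members, a log2 fold change of 0.49 for DDX43, came from a gene at 0.520 CPM in control and had an adjusted p of 0.237 from edgeR.

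**Figure D2:**
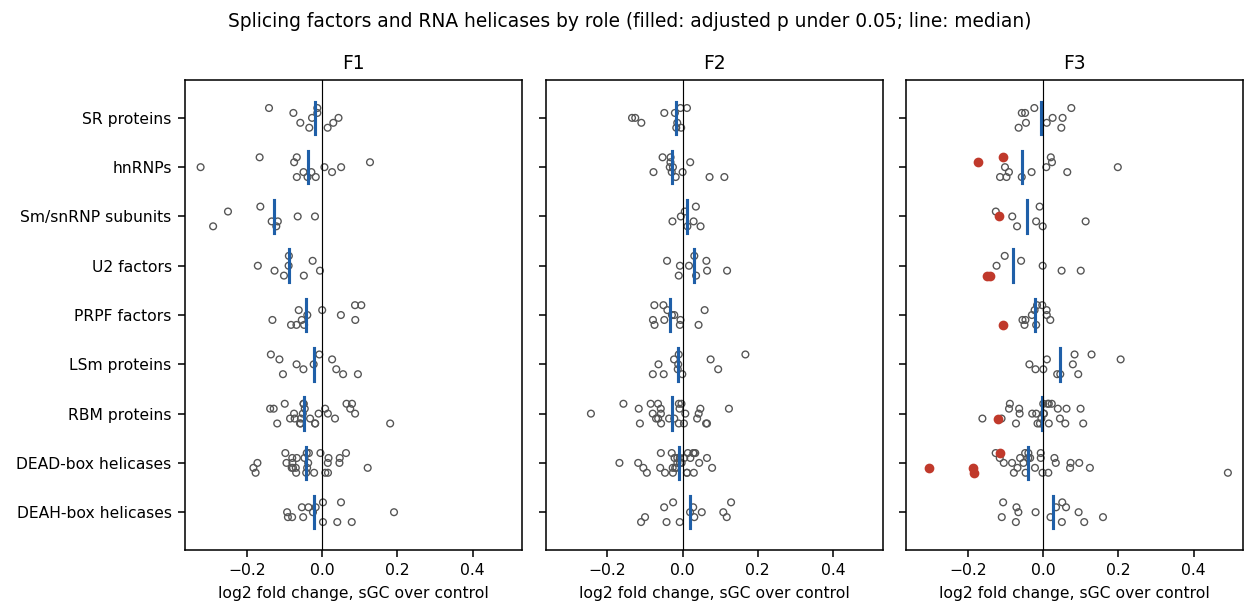
Log2 fold changes of sGC over control for each member tested, by role (rows) and generation (panels), with filled points for adjusted p under 0.05 and a line at the median of each role. The filled points are the 11 members of F3, all left of 0, while in F1 all 8 Sm proteins and snRNP subunits and all 8 U2 factors lie left of 0 with none filled.

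Markers of other cell types moved with sGC in F3 as well. Summed over 8 astrocyte markers, levels were 9184 to 10165 CPM in control and 10382 to 11931 in sGC animals, without overlap, and 3 of the 8 genes were called higher. Over 9 neuron markers they were 8687 to 9443 CPM in control and 8263 to 8948 in sGC animals, which overlapped. Of the 9 genes 6 were called lower, and 1 had a fold change above 0 (0.18 on the log2 scale). Over 9 markers of hippocampal neurons, levels were 912 to 970 CPM in control and 816 to 971 in sGC animals, which overlapped too. Of these genes 7 had a fold change below 0, and none was called. Meningeal, choroid plexus, oligodendrocyte, microglia, endothelial, striatal and thalamic marker sums overlapped between the groups, and 1 thalamic gene was called higher. The part of cell makeup in the lower levels of the 11 members was not tested.

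Other genes of the pathway were taken from 4 lists that held no member, and all of their calls in F3 were lower, beside 2.87% of all genes called lower. Of 32 further core spliceosome genes 3 passed (9.38%), namely CDC5L of the PRP19 complex, SLU7, which acts in the second step, and SF1, which binds the branch point. CDC5L had 165.4 to 180.7 CPM in control (median 174.0) and 144.3 to 163.8 in sGC animals (median 156; log2 fold change -0.17, adjusted p = 0.0102 from edgeR). SLU7 stood apart as well, at 55.6 to 57.2 CPM in control and 48.5 to 55.0 in sGC animals (log2 fold change -0.13, adjusted p = 0.0275 from edgeR). Over this list 28 of 32 genes had a fold change below 0 (87.5%, beside 48.3% of all genes), with a median of -0.06. Of 35 splicing regulators 3 passed (8.57%), the neuronal Hu proteins ELAVL2 and ELAVL4, each with -0.17, and the poly(C)-binding PCBP1 with -0.11. Of 17 genes of the exon junction complex and export 1 passed (5.88%), EIF4A3, the helicase that clamps the junction complex on RNA (-0.14, adjusted p = 0.0493 from edgeR), and of 12 splicing kinases and phosphatases none did. No gene of the 4 lists was called in F1, where 2.08% of all genes were, or in F2, where no gene of any kind was.

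In F1 none of the 130 members tested was called by edgeR's quasi-likelihood test, where 2.08% of 11377 genes were. Most of the members had lower means in sGC animals all the same: 92 of 130 fold changes were below 0 (70.8%, beside 51.7% of all genes), with a median of -0.04 beside -0.005. At an unadjusted p under 0.05, 14 members were lower and 2 higher, where 9.06% and 10.5% of all genes were. DDX39B had the smallest adjusted p, 0.0736. The likelihood ratio test called 3 members, DESeq2 called 4 and the joint fit of all generations called 8, and each of these was lower (DDX39B, SNRPC and SRSF3 in all 3 of these fits, where 1.74%, 1.71% and 2.26% of all genes were called lower).

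DDX39B, a helicase of U2 recruitment and of mRNA export, had 209 to 247 CPM in the 6 F1 control animals (median 223). The 5 sGC animals had 209.7, 204.9, 200.1, 192.3 and 203.7 CPM. All but the first lay below the control range, with a log2 change of -0.17 and a standard error of 0.0471 (edgeR adjusted p 0.0736). SRSF3, an SR protein of splicing and export, ranged from 149.2 to 165.3 CPM in control (median 151.3), and sGC animals had 144.3, 140.9, 140.8, 140.6 and 130.0. The groups did not overlap (log2 fold change -0.14, standard error 0.0395, adjusted p = 0.0786 from edgeR). Besides SRSF3, the F1 groups stood apart for DDX1, HNRNPAB and SNRPD1, each with sGC below control, which is 4 of 130 members beside 1.96% of all genes.

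Among the roles, Sm proteins and snRNP subunits had the lowest median in F1. All 8 had a fold change below 0 (median -0.13), and their summed level was 501 to 528 CPM in control and 452 to 512 in sGC animals. SNRPC, the U1 subunit that helps to hold the 5′ splice site, had 33.6 to 39.6 CPM in control (median 36.3) and 34.5, 34.3, 28.9, 26.1 and 29.2 in sGC animals (log2 fold change -0.25, adjusted p = 0.0845 from edgeR). SNRPD1, an Sm ring protein, had 33.1 to 36 CPM in control (median 34.4) and 31.5, 31.9, 29.3, 32.8 and 28.6 in sGC animals (log2 fold change -0.16, adjusted p = 0.0845 from edgeR). SNRPA1, a U2 subunit, had the lowest fold change of the role, -0.29 (adjusted p = 0.119 from edgeR), and SNRPG, which passed in F3, had -0.02 in F1 (adjusted p = 0.880). All 8 U2 factors tested were also below 0 in F1 (median -0.09), with SF3B6, the subunit that touches the branch point, at -0.17 (adjusted p = 0.0823 from edgeR).

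Higher members of F1 did not pass either. HNRNPA3 had 100.3 to 113.2 CPM in control (median 109.2) and 128.4, 123.2, 120.8, 109.4 and 111.0 in sGC animals (log2 fold change 0.13, adjusted p = 0.167 from edgeR). DHX36, which unwinds G-quadruplexes, was at 0.19 on the log2 scale (edgeR adjusted p 0.221), and was the 1 member called without sGC replicate 4 (adjusted p = 0.0388), where 2.42% of all genes were called higher. PRPF8, at the active centre of the spliceosome, had mean levels of 299.9 CPM in control (SD 7.32, n = 6) and 319 CPM in sGC females (SD 16.4, n = 5; log2 fold change 0.09, adjusted p = 0.257 from edgeR). PRPF38B and DHX40 followed with 0.10 and 0.08. The row of HNRNPA2B1, which gave the lowest fold change of F1 (-0.32, adjusted p = 0.463), held only 0.876 CPM in control, although the gene is known as a widely expressed hnRNP, and how reads were assigned to it was not checked here.

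Taken over all members, the lower levels of F1 lay largely in sGC replicates 4 and 5, whereas Sm proteins and U2 factors had medians below control in each sGC library. In each library the log2 deviation of every member from the control mean was taken, and its median over members lay between -0.031 and 0.035 in F1 control libraries. It was -0.001, 0.004 and -0.020 in sGC replicates 1 to 3, and -0.105 and -0.055 in replicates 4 and 5, both among the libraries numbered 32 to 36. Members took 1.03% and 1.04% of the reads in those 2 libraries, and 1.12% to 1.15% in the other sGC libraries. Without them the median fold change of F1 moved from -0.04 to -0.01, and no member was called (0.845% of all genes). For Sm proteins and snRNP subunits the median deviation was -0.104, -0.093, -0.184, -0.148 and -0.164 in sGC replicates 1 to 5. For U2 factors it was -0.057, -0.061, -0.101, -0.207 and -0.047. In both roles each sGC library lay below every F1 control library, the lowest of which had -0.036 and -0.031. Fold changes of the 2 roles were not summarised without replicates 4 and 5. Of single genes, SNRPC, SNRPD1 and SNRPA1 stayed below 0 under every setting, while SNRPG was at 0.044 without libraries 32 to 36. Astrocyte marker sums were 8308 to 10853 CPM in F1 control and 9481 to 15487 in sGC animals, with all 8 genes above 0 and none called, and meningeal marker sums were 106 to 297 and 73.8 to 146.8, with 2 of 9 called lower. Their part in the values of the members was not tested.

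**Figure D3:**
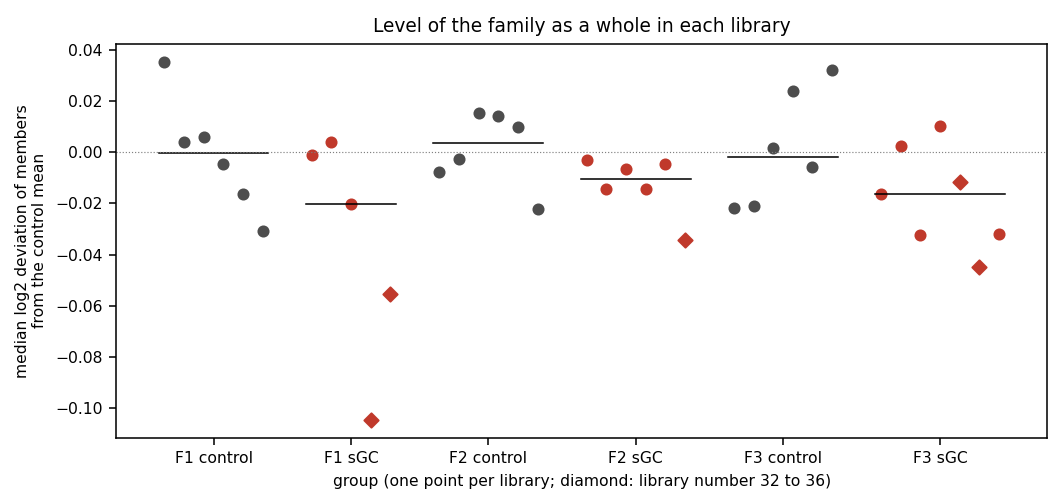
Median over members of the log2 deviation from the control mean of the same generation, 1 point per library, with a line at the median of each group and diamonds for libraries numbered 32 to 36. The 2 diamonds of F1 (-0.105 and -0.055) lie below every other library, while F2 and F3 sGC libraries overlap with control.

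In F2 no member was called, and neither was any of the 11414 genes (0%). At an unadjusted p under 0.05 were 9 lower and 3 higher members of 130, where 2.9% and 3.74% of all genes were, and the likelihood ratio test and DESeq2 called no member (0.0526% and 0.105% of all genes). The median fold change was -0.01, and no member had groups without overlap, as for 0.184% (lower) and 0.219% (higher) of all genes. SR proteins had 9 of 10 fold changes below 0 and PRPF factors 10 of 12, with medians of -0.02 and -0.03. Of all genes 50.3% were below 0. The roles that were all below 0 in F1 went the other way in F2. Sm proteins and snRNP subunits had 5 of 7 above 0 (median 0.01), and U2 factors 6 of 9 (median 0.03). DDX39B again had the smallest adjusted p, 0.507. It ranged from 207 to 218 CPM in control (median 214) and, in sGC females, from 179 to 216 (median 183), and 5 of 6 sGC animals lay below the lowest control animal (log2 fold change -0.17, standard error 0.0410). Without sGC replicate 5, the animal at 216 CPM, DDX39B was called with an adjusted p of 0.0340 from edgeR, as the 1 gene called lower (0.00875%). That fit left out the 1 sGC animal within the control range, and was the only 1 of 19 other settings to call DDX39B.

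Other low members of F2 were RBM6, a splicing regulator (log2 fold change -0.11), SRSF5 (-0.11), the cold-inducible RBM3 (-0.24) and DHX36 (-0.10), with adjusted p-values of 0.678 to 0.711 from edgeR. SRSF5 had 91.0 to 99.9 CPM in control (median 97.1) and 81.5 to 95.3 in sGC animals (median 91.3). On the high side stood HNRNPF (0.07), the U2 factor SF3A2 (0.12), LSM7 (0.17), HNRNPA0 (0.11) and LSM10 of the U7 snRNP (0.10), with adjusted p-values of 0.711 to 0.764. All 6 sGC animals were above the control mean for HNRNPF and LSM7, whose groups overlapped nevertheless.

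The effects of sGC in the 3 generations were compared member by member. DDX1 was lower in sGC animals of F1 and of F3 by nearly the same amount, -0.18 in both, although F1 did not pass (adjusted p = 0.104). Its F1 control animals had 338 to 362 CPM, and the sGC animals had 309.5, 334.3, 323.9, 264.2 and 326.7. In F2 its fold change was 0.01, with 320 to 363 CPM in control and 313 to 422 in sGC animals, where replicate 3 alone was above 338, and without that library the fold change was -0.05. HNRNPAB had -0.17 in F1 (78.5 to 88.5 CPM in control and 76.6, 75.2, 77.7, 64.3 and 75.6 in sGC animals), 0.02 in F2 and -0.11 in F3. DDX39B differed from this order, with -0.17, -0.17 and 0.07, and in F3 it had 203 to 234 CPM in control (median 217) and 213 to 241 in sGC animals (median 228). SRSF3 had -0.14, -0.01 and -0.02, and its effect was not shown to differ between generations (interaction adjusted p = 0.126 for F2 against F1 and 0.260 for F3 against F1, from edgeR).

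**Figure D4:**
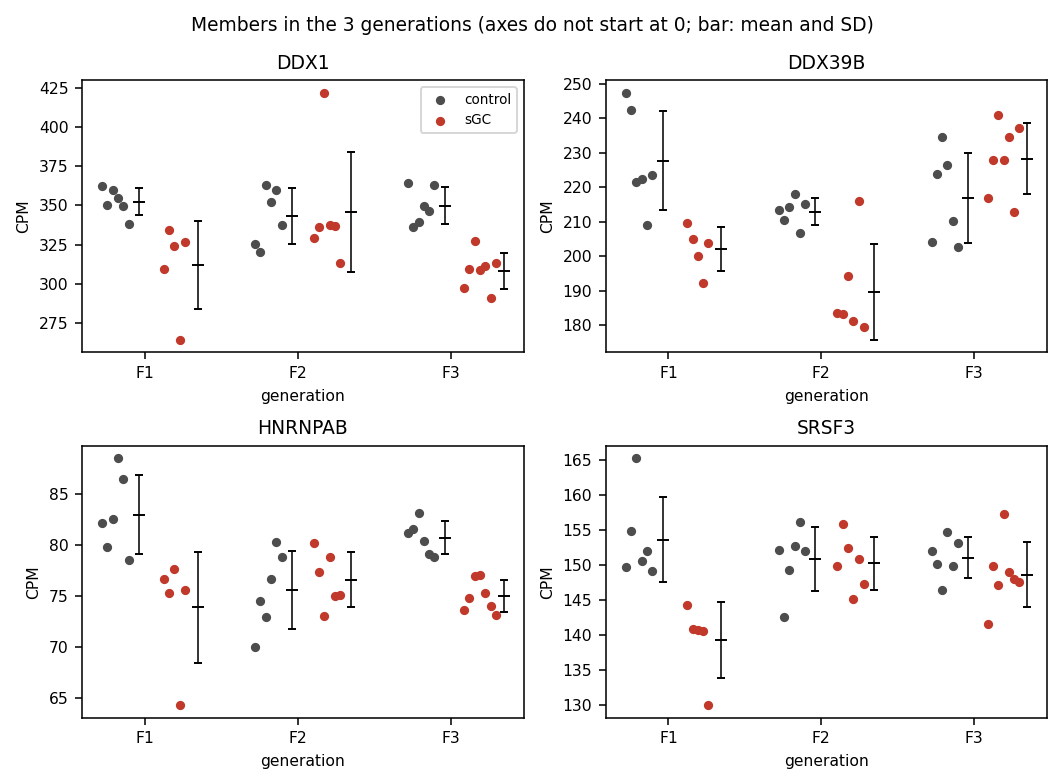
CPM of DDX1, DDX39B, HNRNPAB and SRSF3 in every library of the 3 generations, with mean and SD beside each group and axes that do not start at 0. The groups of DDX1 and HNRNPAB do not overlap in F1 and F3, nor do those of SRSF3 in F1, and of the comparisons drawn the F3 differences of DDX1 and HNRNPAB passed the test.

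Tested as interactions over all 36 libraries, no member's effect differed between generations by edgeR's quasi-likelihood test. Over all 11390 genes 0% were called for F3 against F1, 0.29% for F2 against F1 and 0% for F3 against F2. The smallest adjusted p-values among the members were 0.0924 for HNRNPAB in F2 against F1 (difference 0.18, standard error 0.0542) and 0.0982 for DDX39B in F3 against F1 (difference 0.24, standard error 0.0619). The latter was called by the likelihood ratio test and DESeq2, where 0.509% and 0.588% of all genes were. It was also called, with LSM2, without the libraries numbered 32 to 36, where 3.77% of all genes were called. DESeq2 called HNRNPAB and SRSF3 for F2 against F1 (2.37% of all genes). At an unadjusted p under 0.05, 14 members had a difference above 0 and 6 below 0 for F3 against F1, where 5.24% and 7.84% of all genes had one. For F2 against F1 they were 14 and 7 (7.07% and 9.69% of all genes), and for F3 against F2 they were 6 and 10 (3.88% and 5.2%).

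Over the 127 members tested in every generation, 35 had a fold change below 0 in all 3 (27.6%, beside 17% of all genes), among them DDX10, DDX24, DDX42, HNRNPH2, SF3A1, SRSF3 and SNRPC, and 5 had one above 0 (3.94%, beside 17.3%). Within-generation comparisons share no animals. Over these members, fold changes had a Pearson correlation of -0.14 between F1 and F2, 0.17 between F1 and F3 and 0.10 between F2 and F3, where all genes had -0.01, 0.19 and 0.10. Members are not independent of each other, and these values only describe them.

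Members also varied together among animals of the same group. Deviations from the group mean were taken over 127 members and 36 libraries, and their first principal component held 19.3% of the variance, where it held 13.3% over all genes. Over the libraries, the component of the members and that of all 11161 genes had a correlation of 0.76 in size, so that much of what the members shared ran with the variation of all genes. Of the members 33 had a correlation above 0.5 with it, among them DDX5 (0.88) and DDX17 (0.84), helicases that act as transcription and splicing cofactors, the U2 factor SF3B1 (0.86), SRSF6 (0.83), SRSF11 (0.82), RBM5 (0.81), HNRNPDL (0.81), PRPF4B (0.80), SRSF1 (0.80) and HNRNPH1 (0.78). Only SF3A2 (-0.80), HNRNPF (-0.64) and SRSF9 (-0.52) had one below -0.5. F1 sGC replicate 4 had the lowest score of all libraries (-14.2), and DDX5 ranged from 524 to 667 CPM over the F1 sGC animals. All points share their library's depth and composition, and no test was made.

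Spread within groups differed among the members. Over the 127 members tested in every generation, the SD of log2 CPM within groups ranged from 0.040 in HNRNPL to 0.424 in RBM44. RBM44 is at 3.52 CPM, and the median SD was 0.081. RBM3, at 26.6 CPM, had 0.193, where RBM44 and DDX60 alone of these members were higher, and DHX36 had 0.145. Among members with levels near 100 CPM that did not move, DHX30 had F3 means of 122 CPM in control (SD 5.22, n = 6) and 120.5 CPM in sGC females (SD 5.05, n = 7), a difference of -0.02 on the log2 scale with a standard error of 0.0361. LSM14A, a P-body protein, had means of 83.9 CPM (SD 2.84, n = 6) and 84.4 CPM (SD 4.93, n = 7), a difference of 0.01 with a standard error of 0.0399.

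The control levels of some members were set apart in F2, as were those of a similar share of all genes. When all libraries were scaled together over the genes common to the 3 tables, the 6 F2 controls lay outside the range of every F1 and F3 control for 22 of the members in all 3 tables, 14 lower and 8 higher. That is 10.9% and 6.25% of members, beside 9.45% and 8.64% of all 11390 genes, and no member was set apart in this way in F1 or in F3. SRSF9 was at 208 ± 12.3 CPM (SD, n = 6) in F1 control, 36.5 ± 1.39 (SD, n = 6) in F2 and 212 ± 14.2 (SD, n = 6) in F3. HNRNPA0 was at 82.1 ± 2.87, 26 ± 1.82 and 86.1 ± 3.51 CPM (SD, n = 6 each), and SRSF5 at 200.1 ± 18.4, 95.6 ± 2.89 and 201.4 ± 15.1. LSM1, of the decay ring, was at 94.0 ± 3.56, 49.2 ± 0.814 and 93.6 ± 4.81, and RBM10, a splicing regulator, at 127.9 ± 5.32, 82.3 ± 3.70 and 123.7 ± 7.03. In the other direction, PRPF4B, a kinase of the tri-snRNP, was at 78.7 ± 3.83, 125.1 ± 5.43 and 81.9 ± 3.16 CPM, and DHX36 at 37.6 ± 3.21, 54.8 ± 2.48 and 40.1 ± 5.63. In F2 sGC animals lay beside their controls, with 32.4 to 40.1 CPM for SRSF9 and 25.8 to 31.1 for HNRNPA0.

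**Figure D5:**
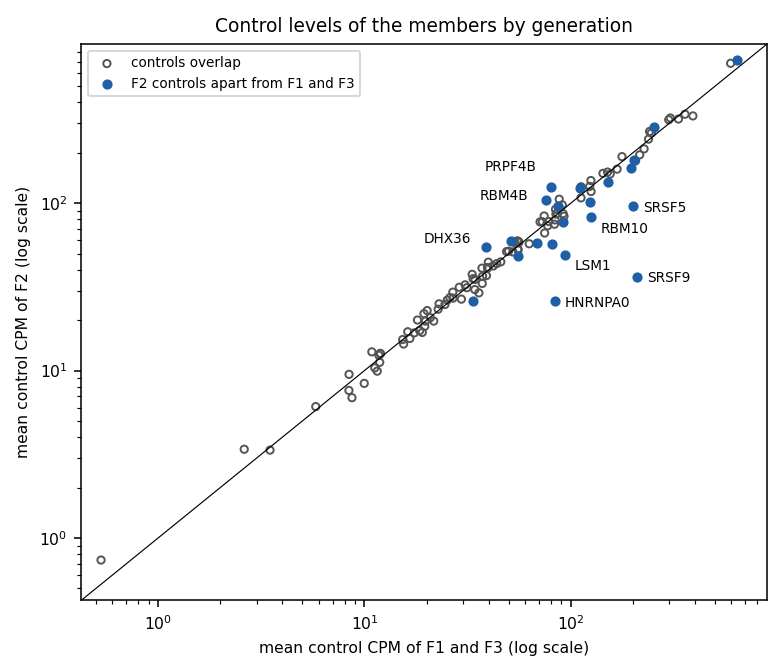
Mean control CPM of each member in F2 (vertical) against the mean of F1 and F3 (horizontal), both on log scales, with filled points where the 6 F2 controls lie outside the range of all F1 and F3 controls. SRSF9, HNRNPA0, SRSF5 and LSM1 lie well below the line of equal levels, and PRPF4B, RBM4B and DHX36 above it.

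The F2 table also differed in the genes it held. F1 and F3 shared 11605 genes, with 46 and 58 in 1 table only, whereas F1 and F2 shared 11469, with 182 and 247 in 1 table only. Generation and the making of its table cannot be told apart, so that these levels give no difference between generations, and comparisons of sGC with control were made within a generation.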

How the data were processed

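TruSeq mRNA libraries of female hippocampus were sequenced by the authors with single reads of 51 bases. The authors deposited raw counts of reads per gene and library for each generation, without normalization. TopHat2 and edgeR stand in the submitters' processing notes, and the counting program, strand setting and build for RNA are not given in the sources used here. The tables' own columns of fold changes and p-values, and the methylation tables, which hold a difference with p and q from methylKit, are the authors' comparisons and were not used.

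Members were taken by symbol. Members, roles and lists were chosen with earlier results of these data known. Counts were analysed in R 4.3.3 with edgeR 4.0.16 (filterByExpr, TMM, glmQLFit and glmQLFTest, Benjamini-Hochberg over all genes, threshold 0.05), each generation alone, and interactions over all 36 libraries. Alternatives were the likelihood ratio test named in the study's methods, DESeq2 1.42.0, RLE scaling, no filter, a replicate block, a joint fit, and fits without libraries 32 to 36 or without each library. Scripts were tested on simulated data. Log2 CPM for deviations used a prior count of 2. Control levels across generations were added after seeing the data. Genes named were, per generation, the 10 members per direction with the smallest adjusted p past the threshold, else up to 5 with the smallest p, DDX39B, and the member of each role with the highest mean CPM; others (DDX1 and HNRNPAB outside F3, members lost or gained under an alternative, and those at extremes) were chosen after their values were seen. Figures used matplotlib 3.10.9.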

Additional observations from a re-analysis of the deposited data

Results flagged for a closer look

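In 96 groups of 5 to 7 libraries, 1 library was compared with the others by its gap over the range of the group (Dixon's criterion), which chance exceeds in about 1 of 20 groups, and 9 stood out. In F1, SRSF3 was high in control replicate 3 (165.3 CPM) and low in sGC replicate 5 (130.0 CPM), and sGC replicate 4 was low for HNRNPAB (64.3 CPM) and SNRPG (197.7 CPM). This library also had the lowest score on the component shared by the members. In F2, DDX1 was high in sGC replicate 3 (421.8 CPM), LSM10 low in sGC replicate 1 (16.7 CPM) and SRSF5 low in control replicate 1 (91.0 CPM), and the median deviation of the members was low in sGC replicate 6 (-0.034 on the log2 scale), 1 of the libraries numbered 32 to 36. In F3, SNRPG was high in control replicate 1 (250.8 CPM), and without that library SNRPG was not called (adjusted p = 0.0981 from edgeR). This loss was not particular to that library, because SNRPG was called in only 2 of the 13 fits without 1 library.

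SF3B6 moved in opposite directions in 2 generations: all 5 sGC animals of F1 were below and all 6 of F2 above their control mean, and the fold changes differed by 0.23 on the log2 scale. In the joint fit this difference did not pass (adjusted p = 0.124 from edgeR's interaction test).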

How the results depend on the processing

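Without libraries 32 to 36 the F3 count went from 11 to 5 members, the median of F1 from -0.044 to -0.012, and the count for F3 against F1 from 0 to 2 (DDX39B and LSM2). In F1 the likelihood ratio test called 3 members, DESeq2 called 4 and the joint fit 8, and in F3 the joint fit called 7. DESeq2 also called 2 members for F2 against F1 (HNRNPAB and SRSF3) and 1 for F3 against F1, as did the likelihood ratio test. Leaving out 1 library at a time gave 0 to 2 members in F1 (2 without sGC replicate 1, 1 without sGC replicate 4), 0 to 1 in F2 (without sGC replicate 5) and 4 to 10 in F3 (4 without sGC replicate 5, 5 without control replicate 2 or 3, 6 without control replicate 1 or 4 or sGC replicate 1 or 7, and 7 without sGC replicate 2 or 4), with medians of -0.054 to -0.021 in F1, -0.017 to -0.006 in F2 and -0.025 to -0.002 in F3. The cause of these shifts was not tested, and fits that left out libraries also had fewer animals.

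With a replicate block 3 members were called in F3 (DDX10, DDX24 and HNRNPH2) and none in F1 or F2. Correlations between same-numbered libraries lay between -0.37 and 0.30, above 0.1 in 3 of 17 pairs. They showed no pairing of the animals by number, but cannot exclude one. Of the fold changes of named genes recomputed, 4 that were near 0 turned sign. Without libraries 32 to 36 these were SNRPG in F1 (0.044), SRSF3 in F2 (0.000158) and LSM14A in F3 (-0.0068). With 1 library left out SNRPG in F1 lay between -0.044 and 0.033, DDX1 in F2 between -0.052 (without sGC replicate 3) and 0.039, SRSF3 in F2 between -0.021 and 0.0045 and LSM14A in F3 between -0.0083 and 0.034. Every member called in F3 was lower under each alternative, and RLE scaling and no filter kept 10 of the 11. Depth limits members such as DDX43 and HNRNPA2B1, at under 1 CPM, and differences of the size seen here, near 0.1 on the log2 scale, are close to the spread between animals.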
